A study of Mus musculus with 4 samples.

Results

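Glycolysis, gluconeogenesis and glycogen genes were examined in the liver of diet-induced obese (DIO) mice given GALP (galanin-like peptide, a neuropeptide made in the hypothalamus) through the nose. The set held 34 named genes of the glucose pathways of the liver. They were listed by name, with earlier results of these data known. Of these, 33 had a probe under their name, out of 26518 gene names on the array. Pck1, the cytosolic phosphoenolpyruvate carboxykinase, was not analysed here. The 33 genes covered glucose transport and its gatekeeping (2 genes), glycolysis (10 genes), the fate of pyruvate (5 genes), gluconeogenesis (5 genes), glycogen (6 genes), fructose entry (1 gene) and the pentose phosphate pathway (4 genes).

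All mice were male, C57BL/6J by the sample labels, bought at 8 weeks of age, kept for 14 weeks on high-fat feed, and at least 40 g in weight. By the paper, both groups stayed on this feed, freely available, during the treatment. Each day for 11 days they were given 2 µL, either of porcine GALP (1 nmol, in saline with 5% α-cyclodextrin) or, in the control group, of saline (the text does not settle whether the control also held cyclodextrin). The liver RNA was pooled. The greater weight loss pool held 4 mice given GALP, the less weight loss pool held the other 4, and the control pool held 8 mice given saline. The GALP pools were therefore formed by how much weight the mice lost. Dual-colour Agilent arrays compared GALP with control RNA, 2 for each GALP pool with the dyes (Cy3 and Cy5) swapped between them, or 4 arrays in all. Each value is the log2 ratio of GALP over control, so that 0 is no difference. Both arrays of a pool were averaged because they held the same RNA. Means ± SD are of the 2 pool values (n = 2), and the control, as 1 sample, adds no spread of its own to any SD or test. In pooled liver RNA, fewer cells of a type cannot be told apart from less RNA per cell.

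The liver both burns and makes glucose. Glycolysis splits glucose to pyruvate, gluconeogenesis rebuilds glucose from lactate, amino acids and glycerol by way of a few bypass enzymes, and glycogen is the local store. The reversible enzymes in the middle of the path serve both directions, while the irreversible steps at its ends carry most of the hormonal control by insulin and glucagon.

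Of the 33 genes, 0 were called higher and 0 lower by the rule of the methods, against 0.176% and 0.343% of the 11378 genes with signal (on every array, GALP, control or both were well above background). The rule asked for a software p-value under 0.01 and the same direction on all 4 arrays, and for a fold in both GALP pools of more than 1.5 or less than 0.75. Without the p-value the count was again 0 higher and 0 lower, against 0.404% and 1.46% of the genes with signal. The mean log2 ratios of the genes ran from -0.41 (G6pc) to 0.42 (Pdk2), or from 0.751-fold to 1.34-fold, and 5.88% of the genes with signal lay outside this range. Their median was -0.014, beside -0.0139 over all genes with signal. In 24 of the 33 genes the mean was within 0.2 of 0 on the log2 scale, against 76.2% of the genes with signal. All 33 probes were well above background in every GALP and every control channel, so none of these values is a limit set by low signal.

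**Figure D1:**
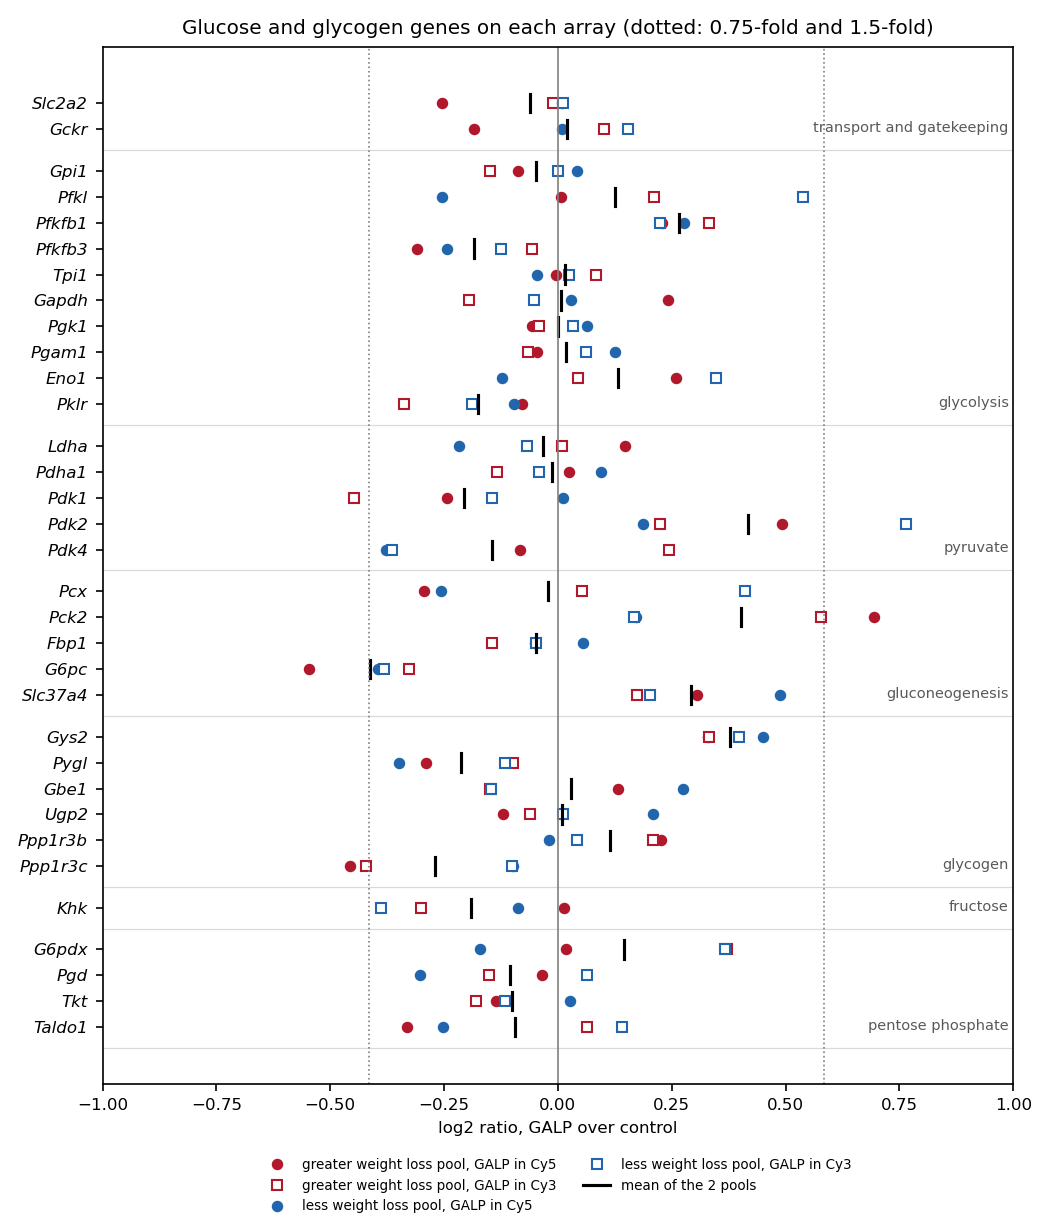
Log2 ratio of GALP over control (x axis) of the 33 genes (rows, by branch) on each of the 4 arrays; red marks the pool with greater and blue that with less weight loss, filled circles GALP in Cy5 and open squares GALP in Cy3, and the black bar the mean of the 2 pools. No gene has its arrays past a dotted line (0.75-fold or 1.5-fold) in both pools, and Pdk2, Pck2, Gys2 and G6pc lie farthest from 0 with all 4 arrays on the same side.

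**Figure D2:**
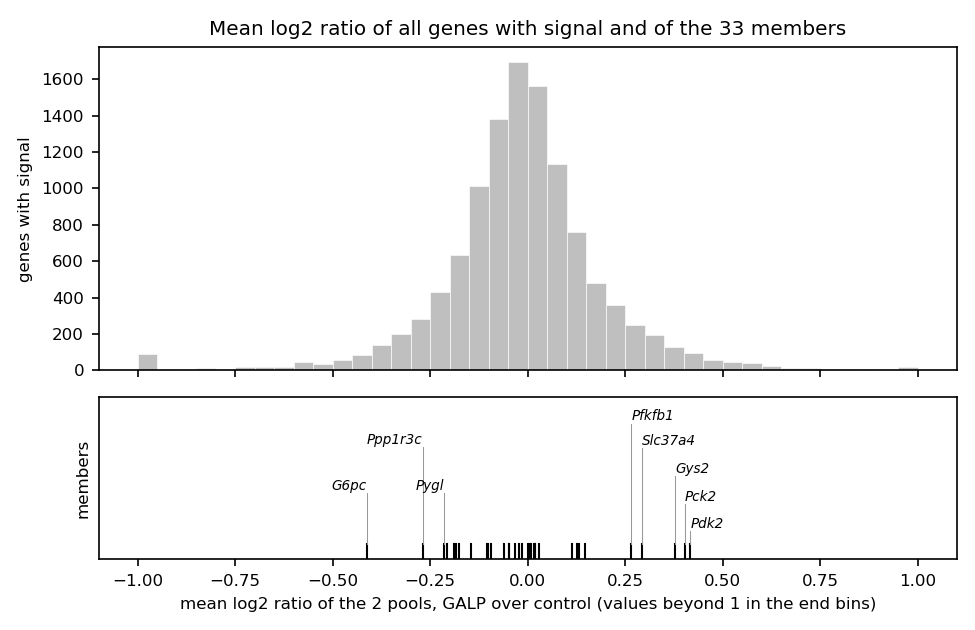
Number of genes with signal in bins of 0.05 of the mean log2 ratio of the 2 pools (grey bars, 11378 genes), above the means of the 33 genes (black ticks). The ticks spread from -0.41 to 0.42 over the centre of the distribution of all genes.

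Differences that repeated over dyes and pools were small and went both ways. Above 0 on all 4 arrays were 5 genes (Pfkfb1, Pdk2, Pck2, Slc37a4 and Gys2; 12.8% of the genes with signal), and below 0 on all 4 were 5 genes (Pfkfb3, Pklr, G6pc, Pygl and Ppp1r3c; 14.5%). A mean of at least 0.3 in size on the log2 scale with the same direction on all 4 arrays was found for 4 genes, Pdk2, Pck2, Gys2 and G6pc, against 8.82% of the genes with signal. The processed signals of the 4 GALP channels lay above those of all 4 control channels for 4 genes (Pdk2, Pck2, Slc37a4 and Gys2; 2.87% of the genes with signal) and below them for 2 genes (Pklr and G6pc; 2.42%). The 4 arrays share the control RNA, so these counts are not those of 4 independent comparisons.

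With limma on the 2 pools, 0 of the 33 genes passed an adjusted p of 0.05 over the 41037 probes, and the smallest adjusted p among them was 0.374. At an unadjusted limma p under 0.05 there were 6 higher genes (Pfkl, Pfkfb1, Eno1, Pdk2, Slc37a4 and Gys2; 8.68% of the genes with signal) and 4 lower genes (Pfkfb3, G6pc, Pygl and Pgd; 11.4%). For 20 of the 33 genes the 95% interval of limma lay wholly between 0.75-fold and 1.5-fold, while 6 intervals reached 1.5-fold and 11 reached 0.75-fold. These intervals rest on the 2 pool values, without the spread between dyes or of the control. That of Pfkl ran from 0.03 to 0.22, while its arrays ran from -0.26 to 0.54. The count of 20 therefore does not show a lack of change. After another background correction (normexp with loess) the adjusted limma p was under 0.05 for 3 genes, Pdk2 (0.0434), Gys2 (0.0461) and G6pc (0.0426), against 0.431% of the genes with signal called higher and 0.483% called lower.

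The genes that set the last steps of glucose output stood on opposite sides of 0. G6pc, the catalytic subunit of glucose-6-phosphatase, which frees glucose for the blood, was 0.751-fold of control, the lowest value of the set, while Slc37a4, which carries glucose-6-phosphate into the endoplasmic reticulum to that enzyme, was above control. Pck2 and Pdk2 were the other genes furthest from 0 in the pyruvate and gluconeogenesis branches. The bases before the transcription starts of these 4 genes are shown, because their values were the furthest from 0 in both branches and had 1 direction on all 4 arrays. The RefSeq promoter table is on GRCm38.p6 and held 32 of the 34 genes, and Gys2 is only named. Each sequence is the 250 bases before a start, 5′ to 3′ on the strand of the gene, with matches to the searched motifs in capitals.
G6pc, chr11:101367466-101367715, + strand: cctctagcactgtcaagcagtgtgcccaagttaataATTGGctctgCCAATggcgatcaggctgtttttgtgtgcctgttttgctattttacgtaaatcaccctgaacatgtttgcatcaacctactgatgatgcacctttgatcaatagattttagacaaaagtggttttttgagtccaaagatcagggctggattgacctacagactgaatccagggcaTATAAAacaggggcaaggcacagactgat
Slc37a4, chr9:44396696-44396945, + strand: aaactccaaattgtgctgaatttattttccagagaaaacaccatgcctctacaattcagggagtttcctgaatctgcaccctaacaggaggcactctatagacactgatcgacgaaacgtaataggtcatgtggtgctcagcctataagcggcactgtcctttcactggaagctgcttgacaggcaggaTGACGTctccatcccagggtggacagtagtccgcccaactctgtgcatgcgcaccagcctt
Pck2, chr14:55540016-55540265, + strand: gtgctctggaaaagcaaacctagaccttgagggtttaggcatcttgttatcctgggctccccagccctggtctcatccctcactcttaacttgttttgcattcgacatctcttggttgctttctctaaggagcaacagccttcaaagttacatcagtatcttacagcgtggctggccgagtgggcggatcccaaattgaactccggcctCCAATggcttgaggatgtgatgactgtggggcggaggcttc
Pdk2, chr11:95041372-95041621, - strand: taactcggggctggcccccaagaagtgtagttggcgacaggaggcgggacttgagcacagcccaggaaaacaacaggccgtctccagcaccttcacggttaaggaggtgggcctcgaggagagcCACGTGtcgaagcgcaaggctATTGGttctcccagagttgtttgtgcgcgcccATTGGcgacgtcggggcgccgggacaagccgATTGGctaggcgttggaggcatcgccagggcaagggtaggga
For Slc37a4 and Pdk2, which have more than 1 start in the table, the first is shown.

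Motifs were searched on both strands. The TATA box (TATAAA) lay 29 bases before the start of G6pc and in none of the other 3 sequences shown, although it also lay 32 bases before the third start of Slc37a4, which is not shown, and 12.4% of all 32851 promoters of the table held it. The CCAAT box (CCAAT, or ATTGG on the other strand, in 33.8% of all promoters) occurred 2 times before G6pc, 1 time before Pck2 and 3 times before Pdk2. The E-box (CACGTG, in 6.02%) occurred before Pdk2, and the core of the cyclic AMP response element (ACGTCA or TGACGT, in 6.47%) before Slc37a4. The forkhead core (TGTTTAC or GTAAACA, in 3.17%) was in none of the 4 sequences, nor before any other start of the set. A match is a run of letters and no measured binding site. Only the exact letters given were searched, so the lack of a match does not show that an element is absent.

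G6pc was lower than control on every array. Its log2 ratio was -0.55 with GALP in Cy5 and -0.33 with GALP in Cy3 in the greater weight loss pool, and -0.39 and -0.38 in the less weight loss pool. The mean was -0.41 ± 0.03 (SD, n = 2), with a 95% interval of limma from -0.55 to -0.28 and an adjusted limma p of 0.374. The processed signal was 9694 to 11960 in the GALP channels and 12160 to 15840 in the control channels, so the 4 GALP values lay below all 4 control values. The software p-value was under 0.01 on 1 array. The probe is at chr11:101238947-101239006 on mm9 (NCBI37), the build of the files, which name no exon or UTR.

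Slc37a4 had log2 ratios of 0.30 and 0.17 in the greater weight loss pool (GALP in Cy5 and in Cy3) and 0.49 and 0.20 in the less weight loss pool. The mean was 0.29 ± 0.08, and the adjusted limma p was 0.424. The transporter and the phosphatase that it feeds thus had values of opposite sign on all 4 arrays. G6pc3, the phosphatase subunit of other tissues, was at 0.10 ± 0.06 and above 0 on every array.

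Pck2, the mitochondrial phosphoenolpyruvate carboxykinase, which turns oxaloacetate into phosphoenolpyruvate, was higher on every array, but by different amounts in the pools. In the greater weight loss pool its log2 ratio was 0.69 with GALP in Cy5 and 0.58 with GALP in Cy3. In the less weight loss pool it was 0.17 on both arrays. The mean was 0.40 ± 0.33, and the 95% interval of limma from -0.79 to 1.60 includes 0 (adjusted p 0.702). After normexp and loess the mean of Pck2 was 0.23, under the size of 0.3. The rule of the methods, applied to the greater weight loss pool alone, called 1 of the 33 genes higher, Pck2, and 0 lower, against 0.791% and 1.06% of the genes with signal. In the less weight loss pool alone it called 0 genes in either direction, against 0.633% higher and 0.967% lower. The processed signal of Pck2 was 338.7 to 384.9 in the control channels, 505.6 and 623 in the GALP channels of the greater weight loss pool and 430.8 and 432.9 in those of the less weight loss pool.

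The other gluconeogenic genes were near 0. Pcx, the pyruvate carboxylase that opens the path, was -0.29 and 0.05 in the greater weight loss pool (GALP in Cy5 and in Cy3) and -0.26 and 0.41 in the less weight loss pool, so its sign followed the dye and its mean of -0.02 ± 0.14 averages opposite values. Fbp1, the fructose-bisphosphatase, was at -0.05 ± 0.07 with array values from -0.15 to 0.05. The median of the 5 measured gluconeogenic genes was -0.02.

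In glycolysis, values furthest from 0 were those of Pfkfb1, Pfkfb3 and Pklr, which act at regulated steps, and none of the 10 genes was called. Gpi1, Tpi1, Gapdh, Pgk1 and Pgam1, enzymes of the reversible middle steps, had pool values from -0.119 to 0.0927 only. Eno1, the alpha-enolase, was at 0.13 ± 0.03, with 1 of its 4 arrays below 0. Pfkfb1, the liver form of the enzyme that makes and removes the fructose bisphosphate signal that speeds glycolysis, was at 0.27 ± 0.02, with 0.23, 0.33, 0.28 and 0.22 on the 4 arrays. Pfkfb3, the inducible form in which the kinase activity prevails, was at -0.18 ± 0.00, with -0.31, -0.06, -0.24 and -0.12. These forms of the same enzyme therefore lay on opposite sides of 0 on every array (adjusted limma p 0.374 for each). Pfkl, the liver phosphofructokinase at the committed step, had a mean of 0.13 ± 0.02, but its arrays ran from -0.26 to 0.54 and the values with GALP in Cy3 exceeded those with GALP in Cy5 in both pools.

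Pklr, the pyruvate kinase of liver and red cells, was at -0.18 ± 0.05 (adjusted limma p 0.431), with -0.08 and -0.34 in the greater and -0.10 and -0.19 in the less weight loss pool. The gene is also active in red cells. The 3 of 6 measured red cell markers with signal were also below 0 on all 4 arrays (14.5% of the genes with signal). Their pool values ran from -0.0255 (Alas2) to -0.626 (Slc4a1). The part of blood in the Pklr value was not tested. Pkm, the pyruvate kinase of other cell types, was at 0.34 ± 0.11. The Kupffer cell markers had a median of 0.141, with 4 of 7 above 0 on all 4 arrays (12.8% of the genes with signal). Clec4f (-0.0013 ± 0.161), Vsig4 (-0.07 ± 0.26) and Timd4 (-0.16 ± 0.16) had arrays on both sides of 0. Marco (0.87 ± 0.25) was called higher, as were 0.176% of the genes with signal. The stellate cell markers had a median of 0.193, with 3 of the 5 with signal above 0 on all 4 arrays. The part of Kupffer, stellate or other cells in the Pkm value was not tested.

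At the pyruvate branch point Pdk2 was above control on every array, while Pdk1 and Pdk4 had means below 0. The pyruvate dehydrogenase kinases switch off the complex that commits pyruvate to acetyl-CoA. Pdk2 had log2 ratios of 0.49 and 0.22 in the greater weight loss pool (GALP in Cy5 and in Cy3) and 0.19 and 0.76 in the less weight loss pool. The mean was 0.42 ± 0.08, with a 95% interval of limma from 0.11 to 0.72 and an adjusted p of 0.401. All 4 arrays were above 0, but the arrays of the same pool differed by 0.27 and 0.58, more than the pool means did. Pdk1 was at -0.21 ± 0.20 with 1 array above 0, and its second, less bright probe was at -0.26 ± 0.01 and below 0 on all 4 arrays. Pdk4, a kinase induced in fasting and by fatty acids, was at 0.08 in the greater and -0.37 in the less weight loss pool. Pdk3, not in the set, was at 0.60 and 0.01 in these pools. Pdha1, a subunit of the dehydrogenase itself, was at -0.01 ± 0.06, and Ldha, the lactate dehydrogenase subunit of the liver, at -0.03 ± 0.16. Of the other subunits, Pdhb was at -0.22 ± 0.02 and below 0 on every array. Dlat (-0.08 ± 0.04), Dld (0.01 ± 0.10) and Pdhx (-0.19 ± 0.13) had arrays on both sides of 0.

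Among the glycogen genes, the synthase had a value above 0 and the phosphorylase a value below 0 on every array. Gys2, the liver glycogen synthase, had log2 ratios of 0.33 on both arrays of the greater weight loss pool and of 0.45 (GALP in Cy5) and 0.40 (GALP in Cy3) in the less weight loss pool. The mean was 0.38 ± 0.07, with a 95% interval of limma from 0.13 to 0.62 and an adjusted p of 0.386. The arrays of a pool differed by at most 0.05, the closest dye agreement among the 4 genes of at least 0.3. The processed signal was 16550 to 21150 in the GALP channels and 13160 to 15600 in the control channels, without overlap. The probe is at chr6:142371206-142371265 on mm9. Pygl, the liver glycogen phosphorylase, was at -0.21 ± 0.03, with -0.29, -0.10, -0.35 and -0.12 (adjusted limma p 0.377).

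The scaffold proteins that bring protein phosphatase 1 to glycogen had values on both sides of 0. Ppp1r3c was at -0.46 and -0.42 in the greater weight loss pool and at -0.10 on both arrays of the less weight loss pool, with a mean of -0.27 ± 0.24 (adjusted limma p 0.702). A second, much less bright probe of Ppp1r3c was at -0.51 in the greater and 0.11 in the less weight loss pool. Its arrays lay on both sides of 0. Ppp1r3b, the form best known from liver, was at 0.22 in the greater and 0.01 in the less weight loss pool. Gbe1, the branching enzyme, was at 0.03 ± 0.05 and followed the dye, with values near 0.13 and 0.28 with GALP in Cy5 and of -0.15 on both arrays with GALP in Cy3. Ugp2, which makes the sugar donor of the synthase, was at 0.01 ± 0.14. The median of the 6 glycogen genes was 0.02.

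Among the entry points and the side path, the value of Khk was furthest from 0. Slc2a2, the glucose transporter of the hepatocyte membrane, was at -0.06 ± 0.10, and Gckr, which holds the glucose-phosphorylating enzyme of the liver in the nucleus, at 0.02 ± 0.09. Khk, the ketohexokinase that admits fructose, was at -0.19 ± 0.07, with array values from -0.39 to 0.01. A second, less bright probe of Khk was at -0.18 ± 0.04 and below 0 on all 4 arrays. In the pentose phosphate pathway, which supplies NADPH, G6pdx was at 0.15 ± 0.07, Pgd at -0.11 ± 0.02, Tkt at -0.10 ± 0.08 and Taldo1 at -0.09 ± 0.06. None of these 4 had the same direction on all 4 arrays. G6pdx and Taldo1 followed the dye in both pools, with differences between the orientations of 0.35 to 0.54.

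Where a gene had several probes with signal (10 genes), the mean log2 ratio of the brightest, which stands for the gene, and of the other probe differed by at most 0.16 (Slc2a2, at -0.06 and 0.10) and by 0.06 in the median gene. The difference between the dye orientations was larger. Its median size was 0.171 in the set and 0.209 over the genes with signal, and the mean log2 ratio exceeded it in 11 of the 33 genes, against 25.4% of the genes with signal. The values of Pck2, Gys2 and G6pc exceeded it and that of Pdk2 did not.

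The GALP pools can be set against each other through the control that they share, with 1 pool on each side and therefore no test. Only Pck2 and Ppp1r3c differed between the pools by at least 0.3 on the log2 scale in both dye orientations, against 5.7% of the genes with signal. The greater weight loss pool was higher than the less weight loss pool for Pck2 by 0.52 (GALP in Cy5) and 0.41 (GALP in Cy3), and lower for Ppp1r3c by 0.36 and 0.32. Pdk4 was just outside that limit, with differences of 0.29 and 0.61. In 6 genes the direction was opposite in the pools on all 4 arrays (6.16% of the genes with signal), with differences under 0.3 in size. The median size of the difference between the pools was 0.0983 in the set and 0.103 over the genes with signal.

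**Figure D3:**
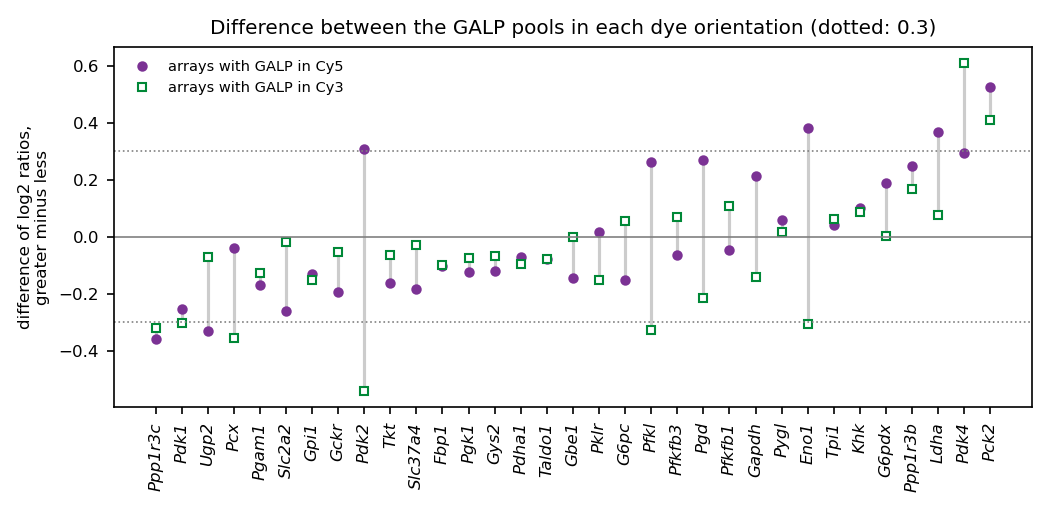
Difference between the GALP pools (log2 ratio of the greater minus that of the less weight loss pool, y axis) for the 33 genes (x axis, ordered by their mean difference), for the arrays with GALP in Cy5 (filled circles) and in Cy3 (open squares). Pck2 lies above and Ppp1r3c below the dotted lines at 0.3 in both orientations. Pdk2, Eno1, Pfkl, Pgd and Gapdh are among the genes whose orientations lie on opposite sides of 0.

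The pools also differed in transcripts of neighbouring tissues, which bears on genes with forms expressed in muscle. Of the 11 skeletal muscle markers, 9 had signal, while Actn3 and Pvalb were without signal. Pool values of the 9 ran from -0.00580 to 0.815 in the greater weight loss pool. They ran from -2.96 to -1.30 in the less weight loss pool, with Myh4 taken at its limit. In the less weight loss pool Myh4 was at background in the GALP channels and at least 2.47-fold lower, and the median of the 9 markers with this limit was -2.14. Of 7 pancreas markers with a probe, 6 had signal, with medians of -3.41 in the greater (-3.20 with Ins2 at its limit) and 0.816 in the less weight loss pool. The hepatocyte markers, 8 of 8 with signal, had medians of 0.0542 and -0.0101. Pgam2, the muscle phosphoglycerate mutase, was at 0.06 in the greater weight loss pool, and in the less weight loss pool it was not well above background in the GALP channels and at least 1.98-fold lower than control. Slc2a4, the insulin-responsive transporter of muscle and fat, was at 0.37 and -0.81, Eno3, the enolase of muscle, at 0.12 and -0.49, and Ldhb, the heart-type lactate dehydrogenase subunit, at 0.10 and -0.46. Pgam2, Slc2a4, Eno3 and Ldhb were chosen for display after their values were seen. Pfkm and Aldoa, also forms expressed in muscle, lay nearer to no difference. Pfkm was at 0.04 in the greater and -0.11 in the less weight loss pool, and Aldoa at 0.15 and 0.09. The larger values of Pck2 and Ppp1r3c were in the pool with the low pancreas markers, and that of Pdk4 was in the pool with the low muscle markers. The part of other tissues in these values was not tested.

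**Figure D4:**
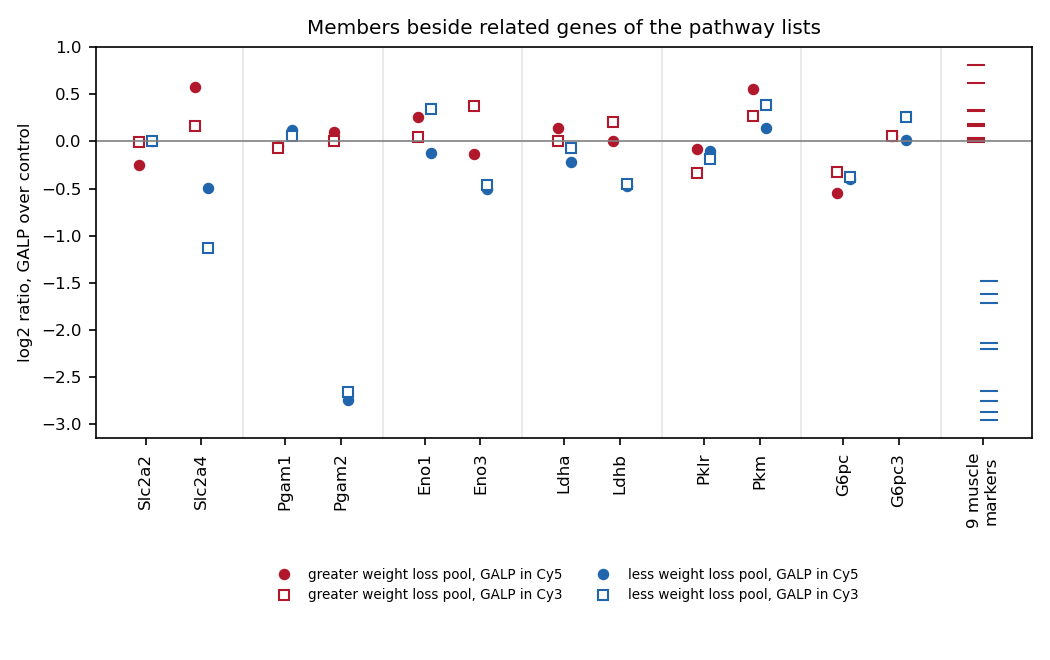
Log2 ratio of GALP over control on each array (y axis) for 6 members of the set, each beside a related gene of other tissues, and the pool values of the 9 skeletal muscle markers with signal (dashes); colours and symbols mark pool and dye as listed under the axis. Slc2a4, Pgam2, Eno3 and Ldhb are low in the less weight loss pool together with the muscle markers, whereas Slc2a2, Pgam1, Eno1 and Ldha stay within 0.35 of 0; the Pgam2 values of that pool are at background in the GALP channels.

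The wider pathway held 85 further genes of glucose, galactose, glycerol phosphate and lactate handling, of which 84 had a probe and 65 had signal. Of these 65, 9 were above 0 and 11 were below 0 on all 4 arrays, against 12.8% and 14.5% of the genes with signal. Ppp1r3g, another glycogen scaffold of protein phosphatase 1, was at -0.89 ± 0.21 and lower than 0.75-fold in both pools, but its software p-value was under 0.01 on 3 of the 4 arrays. Gpd1, the cytosolic glycerol phosphate dehydrogenase (-0.49 ± 0.06), and Slc16a1, a lactate and pyruvate transporter (-0.50 ± 0.07), were also under 0.75-fold in both pools without the p-value, and are named after their values were seen. The median of the 65 genes was 0.00520.

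Of 34 regulators of these pathways, 33 had a probe and 31 had signal. Called were 0 higher and 0 lower, against 0.176% and 0.343% of the genes with signal. Above 0 on all 4 arrays were 7 of the 31 (12.8% of the genes with signal) and below 0 were 4 (14.5%). The mean log2 ratios ran from -0.34 to 0.46. Named after their values were seen, Txnip, which curbs glucose uptake and is induced by glucose, was at 0.46 ± 0.07, Foxo1, a forkhead factor held out of the nucleus by insulin signalling, at 0.35 ± 0.08, and Irs1, a docking protein of the insulin receptor, at -0.34 ± 0.13. Mlxipl, the carbohydrate response factor of the liver, was at -0.09 ± 0.07, and Ppargc1a, a coactivator of gluconeogenesis, at -0.28 ± 0.01 and below 0 on all 4 arrays.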

How the data were processed

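The authors processed the scans of 4 arrays with Agilent Feature Extraction (12.0.3.1 per the file headers, 11.0.1.1 in the submitters' processing notes), which removed local background and balanced the dyes (LOWESS). The deposited files give each spot a processed intensity per channel, a log10 ratio of Cy5 over Cy3 and a p-value from the error model of the software. The deposited series table holds log10 ratios of the same arrays turned to GALP over control, and was used as an alternative.

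Here each ratio was put on the log2 scale with GALP as numerator, and 232 to 319 of the 43379 spots per array were dropped for an outlier mark. Averages were taken first over spots of the same probe, then over both arrays of a pool. The labels give the control channel a weight loss group too, whereas the paper describes 1 control pool, which is how it was used here. The brightest probe without an outlier mark stands for a gene. The fold thresholds and the p-value threshold of 0.01 are those of the methods, and they were applied on all 4 arrays, which the methods do not state. limma 3.58.1 (R 4.3.3, lmFit and eBayes) tested the 2 pools against 0 over 41037 probes with Benjamini-Hochberg adjustment and 1 residual degree of freedom. Both procedures were tested on simulated data. The pools are samples of 4 mice each, and p-values leave out the spread of the control. Precision is limited by the number of pools, since the arrays of a pool hold the same RNA.

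The members and lists were chosen with earlier results of these data known. Genes with values for every array are those called, or at least 0.3 in size (log2) with the same direction on all 4 arrays, and genes of the wider lists are named where called or at least 0.585 in size with the same direction. Other genes of these lists are named after their values were seen. The value of 1 gene of the wider lists that meets this rule is not reported here. Alternatives were normexp (offset 50) with loess, centring, the series table, outlier marks kept, each dye orientation and each pool alone, the mean of all probes of a gene with signal, other p rules, and for limma an intensity trend, a filter on signal and the pool as a random block. Python 3.11.15 with numpy 2.4.6, pandas 2.3.3 and matplotlib 3.10.9 was used.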

Additional observations from a re-analysis of the deposited data

Results flagged for a closer look

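For 6 of the 33 genes both arrays of a pool were above 0 and both arrays of the other were below 0, against 6.16% of the genes with signal. The difference between the pools was not tested, since each pool is 1 sample. On the log2 scale the greater weight loss pool minus the less weight loss pool was -0.141 for Slc2a2, -0.140 for Gpi1, -0.0983 for Pgk1, -0.148 for Pgam1, 0.221 for Ldha and -0.201 for Ugp2. Each of these is under 0.3 in size. Slc2a2, Pgk1, Ldha and Ugp2 have a second probe with signal, and on none of these did both arrays of a pool oppose both arrays of the other. The second probe of Slc2a2 was at 0.133 and 0.0653 in the greater and less weight loss pools, and that of Ldha at -0.0974 and -0.114.

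Of the wider pathway genes with a difference of at least 0.5, the same held for Pgam2 (at least 1.04, since the less weight loss pool was at background in the GALP channels), Slc2a4 (1.18) and Ldhb (0.568). The 9 skeletal muscle markers with signal had medians of 0.187 in the greater and -2.20 in the less weight loss pool (-2.14 with Myh4 at its limit), and their part in these 3 values was not tested.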

How the results depend on the processing

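The count of called genes was 0 with every alternative except the pools alone, where it ranged from 0 to 1 (Pck2, without the less weight loss pool). With limma, 3 genes passed after normexp and loess and 0 with the main fit, the trend, the filter on signal, the series table and the random block, and the cause was not tested. The 2 pools leave 1 residual degree of freedom, so the 0 says little.

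The median over the set moved by less than the spread between the pools with every alternative. The fructose branch (Khk) was at -0.268 after normexp and loess, -0.0366 with GALP in Cy5 only and -0.344 with GALP in Cy3 only. With GALP in Cy3 only the medians were 0.189 for gluconeogenesis, -0.0664 for glycogen and 0.0295 for the pentose phosphate pathway. With 1 pool alone they ran from -0.0674 to 0.0783 for pyruvate, from -0.0497 to 0.0372 for glycogen, and from -0.113 to -0.0500 for the pentose phosphate pathway. On fewer arrays more genes have 1 direction by construction. There were 8 above and 10 below 0 with GALP in Cy5 only, 13 and 12 with GALP in Cy3 only, and with 1 pool alone 10 to 11 above and 8 to 14 below.

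Of the 33 genes, 16 kept their sign with all 9 alternatives, among them the 10 with 1 direction on all 4 arrays. For these 10 the sign in each dye orientation alone and in each pool alone is fixed by construction. Fewest signs were changed by the series table (0), in which the values of the 33 genes did not differ from the main ones. Most were changed by the less weight loss pool alone (8) and by each dye orientation (7). No paired analysis was possible because the replicate numbers mark the dye orientations of the same RNA.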
